A study of Mus musculus with 8 samples.

Results

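Nuclear receptors and their coregulators were followed in the livers of 4 wild-type (WT) mice and 4 SIRT7 knockout (SIRT7 KO) mice. The set held 33 genes that belong by name to the nuclear receptor superfamily or to the coactivators and corepressors that receptors recruit. The rule for membership used no measured value, but the members were chosen with earlier results of these data known. The annotation gave a probe set of a single gene to 30 of them, 26 receptors and 4 coregulators with 50 probe sets in all, among 12393 genes with 22626 probe sets on the array. Nr1h2, Nr3c2 and Ncor1 are not analysed here, because no probe set was paired with them alone. SIRT7 is a histone deacetylase, and mice without it (SIRT7-/-) served in the study as a model of non-alcoholic steatohepatitis that arises on a chow diet. Total RNA of whole liver was hybridised to Affymetrix mouse GeneChips, 1 array a sample, and the labels gave tissue and genotype, while the age, sex and strain of these animals are not stated in the labels or methods. All values below are log2 expression values of the brightest probe set of a gene unless stated otherwise, and a difference is SIRT7 KO minus WT on that scale.

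Nuclear receptors are transcription factors that carry a zinc finger domain for DNA and, in most members, a pocket for a small lipophilic ligand. They bind short hexamer half-sites, alone, as homodimers or as heterodimers with a retinoid X receptor (RXR), and exchange corepressors for coactivators of the NCOA family once a ligand is bound. In liver they set the handling of xenobiotics, bile acids, sterols, glucose and fat.

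The knockout was visible in Sirt7 itself, which read 8.98, 8.97, 8.88 and 8.57 in WT arrays 1 to 4 and 4.73, 4.53, 4.40 and 4.90 in SIRT7 KO arrays 1 to 4. Array medians lay between 6.30 and 6.36, and the hepatocyte markers averaged between 14.35 and 14.46 on every array. Principal component 1 of all probe sets, which held 28% of the variance, separated WT (-34.5 to -2.10) from SIRT7 KO (4.89 to 23.9), and WT array 4 (-34.5) stood away from WT arrays 1 to 3 (-11.2 or above). The 3' minus 5' difference of the GAPDH control is a measure of RNA integrity. It was between 0.163 and 0.289 in WT and between -0.016 and 0.160 in SIRT7 KO, so the groups did not overlap. For the actin control it was between 1.58 and 1.64 in WT and between 1.29 and 1.63 in SIRT7 KO, with overlap. The part of RNA integrity in the results was not tested. Because the RNA came from whole liver, fewer cells of a type and less RNA per cell cannot be told apart.

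Of the 30 measured receptors and coregulators, 1 changed and 29 did not pass the test (limma, adjusted p under 0.15 over all probe sets, the false discovery rate of the study). This share of 3.33% stood beside 4.65% of all genes on the same rule. No member was called higher, against 2.17% of all genes, and 1 was called lower, against 2.48%. Of the 50 probe sets of the members 1 was called (2.0%), against 4.31% of all probe sets. At an unadjusted p under 0.05 the test passed 7 members (23.3%), 2 higher and 5 lower, against 15.6% of all genes. The groups did not overlap in 1 member (3.33%), against 9.8% of all genes. The median difference was -0.08 over the members and -0.003 over all genes, and the median size of a difference was 0.13 and 0.096.

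The 95% interval of the difference included 0 for 23 of the 29 members that were not called, and it lay within 0.5 of 0 on the log2 scale, which is a 1.41-fold change, also for 23 of them. The widest bounds were -0.67 for Nr2f2 and 1.33 for Nr4a1. A miss of the threshold therefore left room for changes of that size in these members, and for smaller ones in most.

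**Figure D1:**
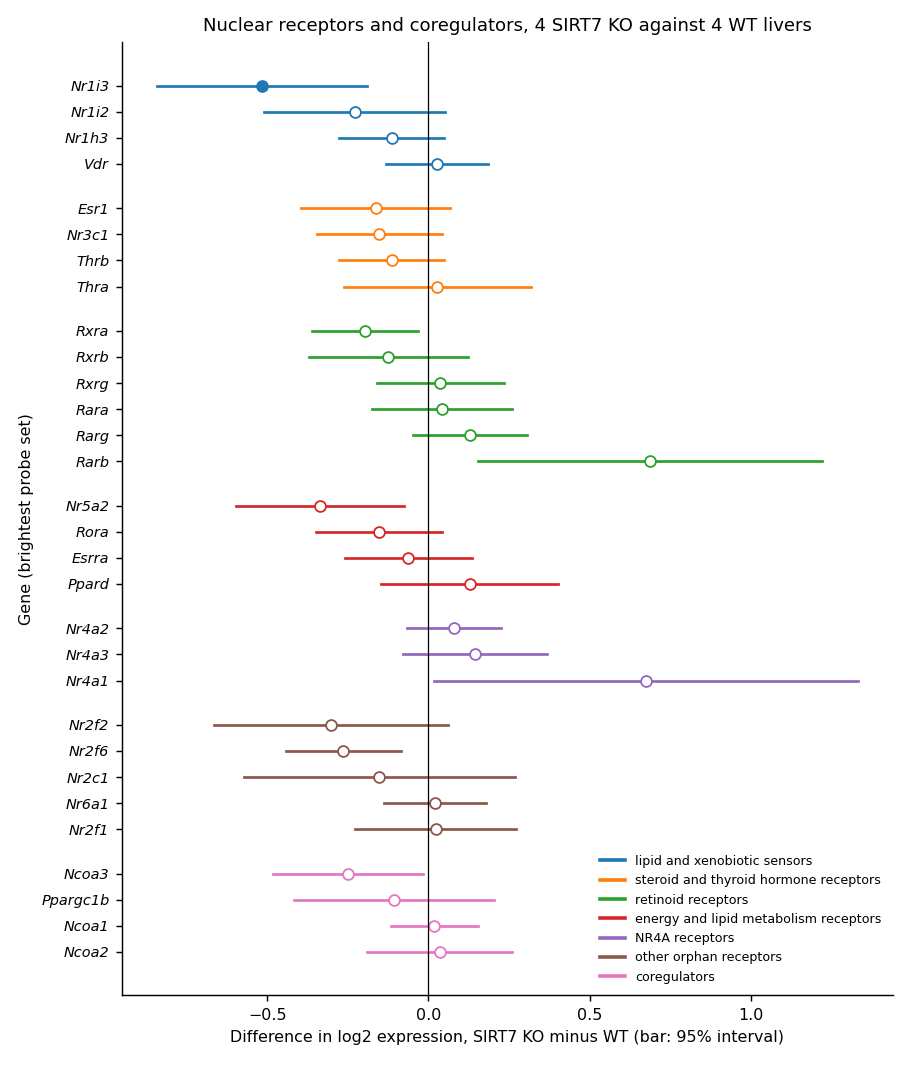
Difference in log2 expression (SIRT7 KO minus WT, horizontal axis) for each of the 30 measured genes (vertical axis), grouped and coloured by class, with the 95% interval of limma as a bar and a filled point where the adjusted p was under 0.15. Only Nr1i3, at -0.52, has a filled point, and Rarb (0.69) and Nr4a1 (0.67) lie farthest to the right.

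The sequences before the start sites of 5 receptors are shown because these genes held the member that was called (Nr1i3), the members with the highest differences (Rarb and Nr4a1) and the 2 relatives of Nr4a1. They are the 250 bases before the RefSeq start (GRCm38.p6), 5′ to 3′ in the direction of transcription, and a window was found for 28 of the 33 genes. Capitals mark a motif that was searched on both strands.

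The window of Nr1i3 (chr1:171213720-171213969, plus strand) held 1 AP-1 element, TGAGTCA, in capitals, 109 to 103 bases before the start. This motif was chosen after the sequence had been seen, and 4.46% of all 32851 windows of this length held it. The window held no receptor half-site (AGGTCA, or the variants AGTTCA and GGTTCA, or likewise GGGTCA), which 38.6% of all windows and 40.5% of the 42 windows of the members did.
Nr1i3: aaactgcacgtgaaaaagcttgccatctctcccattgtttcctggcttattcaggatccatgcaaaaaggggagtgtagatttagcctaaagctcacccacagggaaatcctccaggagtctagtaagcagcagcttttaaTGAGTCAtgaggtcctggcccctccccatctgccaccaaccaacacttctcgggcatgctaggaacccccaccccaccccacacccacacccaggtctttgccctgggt

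The window of Rarb (chr14:16575477-16575726, minus strand) held a direct repeat of such half-sites spaced by 5 bases, the arrangement that RAR and RXR dimers are known to bind, in capitals 53 to 37 bases before the start. Such a repeat was in 0.0883% of all windows and in no other window of the members.
Rarb: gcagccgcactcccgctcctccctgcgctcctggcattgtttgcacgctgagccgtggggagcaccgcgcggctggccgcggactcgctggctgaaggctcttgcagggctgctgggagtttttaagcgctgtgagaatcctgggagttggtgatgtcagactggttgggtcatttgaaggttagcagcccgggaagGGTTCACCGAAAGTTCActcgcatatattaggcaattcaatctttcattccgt

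The windows of Nr4a1 (chr15:101266596-101266845, plus strand), Nr4a2 (chr2:57124004-57124253, minus strand) and Nr4a3 (chr4:48045055-48045304, plus strand) each held 4 matches to TGACG or its complement CGTCA, the core of the cAMP response element, in capitals. At least 1 match was in 17.8% of all windows and 19.0% of the windows of the members, and 4 or more were in 0.137% of all windows. The cut of 4 equals the count in these NR4A windows, so the low share is no independent support. The data do not show which of these letters are bound in liver.
Nr4a1: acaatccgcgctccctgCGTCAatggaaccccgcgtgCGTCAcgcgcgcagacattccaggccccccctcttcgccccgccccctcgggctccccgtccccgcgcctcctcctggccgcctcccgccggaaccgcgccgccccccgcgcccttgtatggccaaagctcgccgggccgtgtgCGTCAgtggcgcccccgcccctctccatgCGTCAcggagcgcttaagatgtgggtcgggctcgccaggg
Nr4a2: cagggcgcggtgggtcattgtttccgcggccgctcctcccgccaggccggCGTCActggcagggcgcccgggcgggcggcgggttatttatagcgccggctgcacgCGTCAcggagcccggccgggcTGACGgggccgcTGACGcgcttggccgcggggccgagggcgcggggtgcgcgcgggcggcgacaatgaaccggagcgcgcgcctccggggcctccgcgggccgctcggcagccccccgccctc
Nr4a3: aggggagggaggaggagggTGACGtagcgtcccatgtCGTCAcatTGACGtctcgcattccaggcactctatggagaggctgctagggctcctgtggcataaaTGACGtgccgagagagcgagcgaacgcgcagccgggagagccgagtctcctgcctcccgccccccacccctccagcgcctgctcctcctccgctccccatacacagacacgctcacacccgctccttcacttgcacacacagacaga

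Among the lipid and xenobiotic sensors, Nr1i3, which encodes the constitutive androstane receptor CAR that switches on drug metabolism, was the member that changed. It read 9.46, 9.42, 8.87 and 9.17 in WT and 8.93, 8.64, 8.48 and 8.82 in SIRT7 KO. SIRT7 KO array 1 lay above WT array 3, so the groups overlapped. Nr1i3 fell by 0.52 ± 0.145 (SE, n = 4 and 4, adjusted p = 0.142, limma), with an interval from -0.84 to -0.19. The call was lost in 7 of the 8 fits that left out 1 array, with adjusted p between 0.159 and 0.301, and it held only without WT array 3 (-0.64, adjusted p = 0.0792). The markers of hepatocytes, the cells that make most hepatic CAR, averaged between 14.40 and 14.46 in WT and between 14.35 and 14.38 in SIRT7 KO, with all 5 differences negative and 0 called. Their mean signals, 12.73 to 15.22, were at the top of the range of the array, where a change may be compressed, so these values bound the hepatocyte RNA poorly. Their part in this result was not tested.

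Nr1i2, the pregnane X receptor PXR that shares many targets with CAR, read 8.32, 8.09, 8.18 and 8.44 in WT and 8.30, 8.11, 7.74 and 7.96 in SIRT7 KO. Its difference of -0.23 (interval -0.51 to 0.05) did not pass. Nr1h3, the oxysterol receptor LXRα, differed by -0.11 (-0.28 to 0.05). Vdr, the vitamin D receptor, differed by 0.03 (-0.13 to 0.18) at a dim mean signal of 4.40, where the lower quartile over the array was 4.56, and its second probe set had the opposite sign (-0.05).

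The known targets of these sensors were read from lists of textbook genes. Of the 17 measured targets of PXR and CAR none passed the test, and 11 of the differences were positive. Cyp3a11, a main drug-metabolising P450, had the smallest p, with 14.66, 14.60, 14.56 and 14.54 in WT and 14.74, 14.80, 14.77 and 14.79 in SIRT7 KO (difference 0.18, adjusted p = 0.194). Its 4 SIRT7 KO values all lay above WT, whereas Nr1i3 was lower, and its signals were near the top of the range of the array. The other 6 differences were negative. The lowest was that of Ces2a, which like Nr1i3 was lower (-0.36, adjusted p = 0.281). Cyp2b10, the classical CAR target, differed by 0.11 (adjusted p = 0.833), and both it and Ces2a were picked after their values had been seen. None of the 13 LXR targets passed, and Lpl, the lipoprotein lipase, came nearest at 0.82 (adjusted p = 0.288). The 5 vitamin D receptor targets had mean signals of at most 5.09 and none passed, with Cyp24a1, which degrades vitamin D, at 0.24 (adjusted p = 0.271).

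The steroid and thyroid hormone receptors did not pass in any of the 4 genes measured. Nr3c1, the glucocorticoid receptor, read 9.99, 9.94, 9.76 and 9.66 in WT and 9.61, 9.70, 9.75 and 9.69 in SIRT7 KO. SIRT7 KO array 1 lay below every WT array, and the other SIRT7 KO arrays lay close together in the lower part of the WT range. Its difference was -0.15 (-0.35 to 0.04), and its other probe sets were at -0.17 and -0.19. Esr1, the estrogen receptor α, differed by -0.16 (-0.39 to 0.07) at a dim mean signal of 4.11. Thra and Thrb, the thyroid hormone receptors of which Thrb is the main form in liver, differed by 0.03 (-0.26 to 0.32) and -0.11 (-0.28 to 0.05).

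None of the 14 glucocorticoid receptor targets passed, and none had an unadjusted p under 0.05. Tdo2, the tryptophan dioxygenase of hepatocytes, had the smallest p, at -0.15 (adjusted p = 0.379). Of the 7 thyroid hormone targets 1 rose, and 6 did not pass. Gpd2, the mitochondrial glycerol-3-phosphate dehydrogenase, read 10.09, 9.79, 10.45 and 9.90 in WT and 10.93, 10.63, 10.54 and 10.68 in SIRT7 KO. It rose by 0.63 ± 0.145 (adjusted p = 0.0883) with no overlap of the groups. The call was lost without WT array 1 or 2 or without SIRT7 KO array 1, 2 or 4, where the adjusted p reached 0.199.

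Among the retinoid receptors, Rxra is the RXR of hepatocytes and the partner of PPARα, LXR, CAR, PXR and FXR. It read 10.10, 10.22, 10.25 and 10.32 in WT and 9.91, 10.04, 10.04 and 10.12 in SIRT7 KO. SIRT7 KO array 4 lay just above WT array 1, and all others were below. Its difference of -0.20 (-0.36 to -0.03) did not pass the adjusted test (adjusted p = 0.25), and a dimmer probe set of Rxra differed by -0.001. Rxrb and Rxrg differed by -0.12 (-0.37 to 0.12) and 0.04 (-0.16 to 0.24).

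Rarb, a retinoic acid receptor that is itself induced by retinoic acid, had the highest difference of all members. It read 6.84, 6.61, 6.45 and 5.89 in WT and 7.56, 6.57, 7.23 and 7.18 in SIRT7 KO. SIRT7 KO arrays 1, 3 and 4 lay above every WT array, and SIRT7 KO array 2 lay within them. The difference was 0.69 ± 0.238 (0.15 to 1.22, adjusted p = 0.220), and it passed only when SIRT7 KO array 2 was left out (0.88, adjusted p = 0.146). Its spread within groups exceeded that of 95.4% of all genes. Rara and Rarg differed by 0.04 (-0.18 to 0.26) and 0.13 (-0.05 to 0.31), and the second probe set of Rarg had the opposite sign (-0.12).

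Hepatic stellate cells store retinoids and express Rarb. Of 8 stellate cell markers 1 rose, and 7 of the 8 differences were positive, with list means between 7.75 and 8.18 in WT and between 8.17 and 8.53 in SIRT7 KO. The 1 negative difference, -0.2, had an unadjusted p under 0.05, as did 3 of the positive differences. The marker that rose was Dcn, which encodes the matrix proteoglycan decorin (0.41 ± 0.10, adjusted p = 0.103), and the call was lost when any array other than WT array 2 or SIRT7 KO array 2 was left out, with adjusted p of up to 0.233. The part of stellate cells in the Rarb values was not tested. None of the 8 measured retinoic acid targets passed, a list that includes Rarb itself, and the smallest p was that of Tgm2, the transglutaminase 2 (0.47, adjusted p = 0.190).

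**Figure D2:**
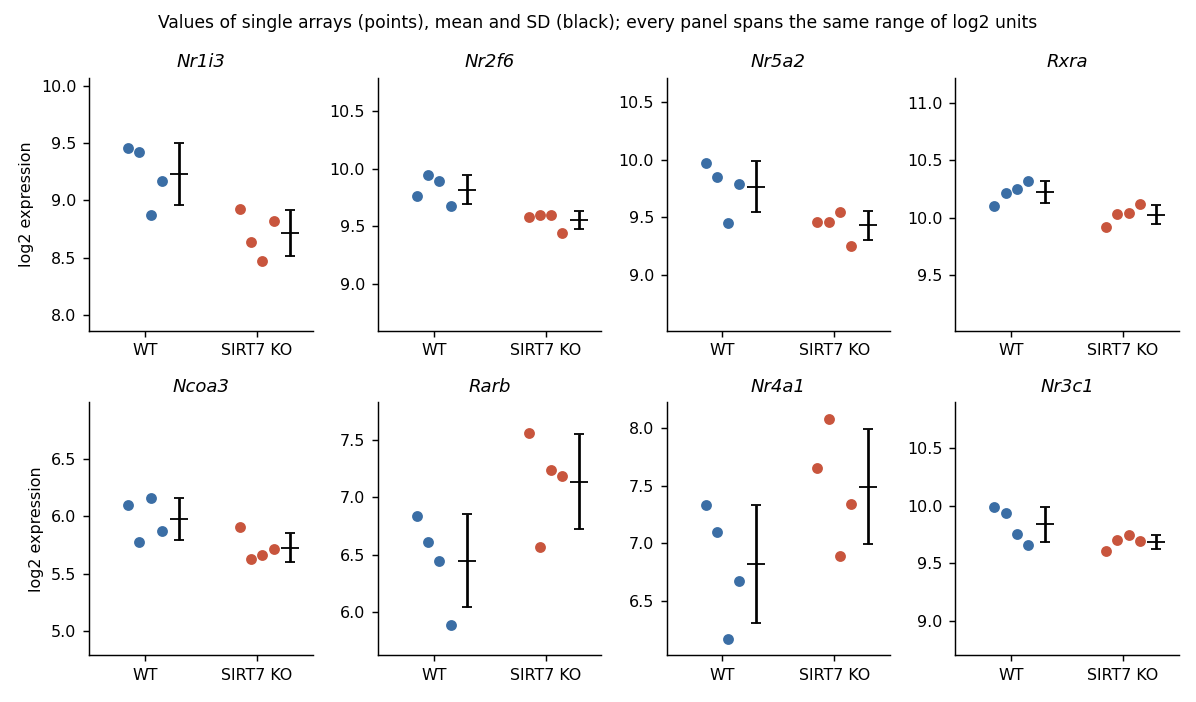
Log2 expression (vertical axis, all panels with the same span) on each WT (blue) and SIRT7 KO (red) array for the 7 members with an unadjusted p under 0.05 and for the glucocorticoid receptor Nr3c1, with the mean and SD of 4 arrays in black. In Nr2f6 the groups are apart, in Nr1i3 and Rxra they overlap by 1 array, and in Rarb SIRT7 KO array 2 (6.57) lies among the WT values.

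The receptors of energy and lipid metabolism did not pass in any of 4 genes. Nr5a2 encodes LRH-1, which drives bile acid and cholesterol genes in liver. It read 9.98, 9.85, 9.45 and 9.79 in WT and 9.46, 9.46, 9.55 and 9.25 in SIRT7 KO. WT array 3 lay among the SIRT7 KO values, and the other WT arrays lay above all of them. The difference of -0.34 (-0.60 to -0.08, adjusted p = 0.219) passed only without WT array 3 (-0.44, adjusted p = 0.0895). Its other 3 probe sets were also below 0, at -0.43, -0.20 and -0.11. None of the 5 measured LRH-1 targets passed, and Scarb1, the HDL receptor, had the smallest p (-0.22, adjusted p = 0.364).

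Rora, a receptor that activates clock genes such as Arntl, differed by -0.15 (-0.35 to 0.04). Its dimmer probe sets lay nearer to no difference, at -0.05 and -0.02. None of the 7 ROR targets passed, with Cry1, a clock repressor, nearest at -0.32 (adjusted p = 0.450). Esrra, an activator of mitochondrial genes together with the PGC-1 coactivators, differed by -0.06 (-0.26 to 0.14). The 10 measured targets of Esrra, its relatives or the PGC-1 coactivators all had positive differences but none passed. Pdk4, a kinase that shuts down pyruvate dehydrogenase, came nearest at 1.58 (adjusted p = 0.157) with all SIRT7 KO arrays (6.73 to 8.78) above WT (5.19 to 6.62). Ppard, the fatty acid sensor PPARδ, differed by 0.13 (-0.15 to 0.40). Of the 5 measured targets of PPARδ or of the PPARs in common, a list that also holds Pdk4, 1 rose and 4 did not pass. Plin2, which coats lipid droplets, rose by 0.76 ± 0.158 (adjusted p = 0.0705), from 12.82, 12.76, 12.85 and 12.32 in WT to 13.77, 13.57, 13.26 and 13.18 in SIRT7 KO, with an adjusted p of 0.157 once WT array 1 was dropped and of 0.156 once SIRT7 KO array 2 was.

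**Figure D3:**
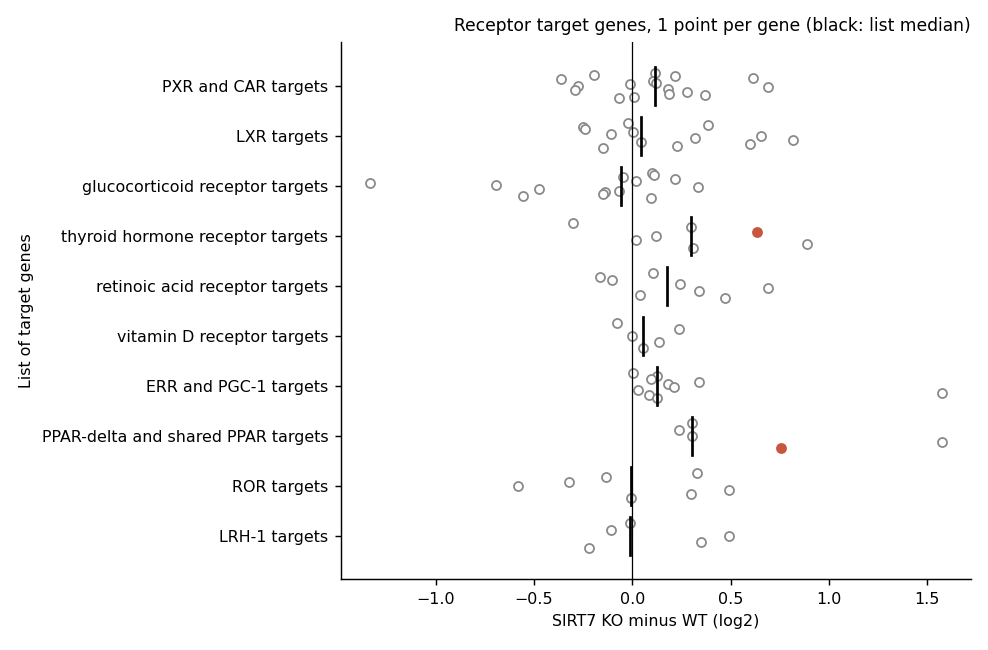
Difference in log2 expression (horizontal axis) of the measured genes of each list of receptor targets (vertical axis), with 1 point per gene, the list median as a black line and genes with an adjusted p under 0.15 in red. The red points are Gpd2 (0.63) and Plin2 (0.76), and the PXR and CAR list, whose receptor Nr1i3 was lower, has none.

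The NR4A receptors Nr4a1, Nr4a2 and Nr4a3 are immediate early genes that act without a known classical ligand. Nr4a1 read 7.33, 7.10, 6.17 and 6.67 in WT and 7.66, 8.08, 6.89 and 7.34 in SIRT7 KO. SIRT7 KO array 3 lay within the WT range and the other SIRT7 KO arrays lay above it. Its difference of 0.67 ± 0.292 (0.02 to 1.33) did not pass the adjusted test (adjusted p = 0.325), and its spread within groups exceeded that of 97.1% of all genes. Nr4a2 and Nr4a3 differed by 0.08 (-0.07 to 0.23) and 0.15 (-0.08 to 0.37), so that all 3 differences were positive and none was called.

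Of 15 other immediate early genes 5 rose and none fell, and 13 differences were positive. The list mean was between 6.34 and 7.04 in WT and between 7.11 and 7.45 in SIRT7 KO. Jun, a subunit of AP-1, rose by 1.60 (adjusted p = 0.0270) and Btg2, an antiproliferative gene, by 1.07 (adjusted p = 0.0270). Egr2, a zinc finger factor, rose by 0.46 (adjusted p = 0.0653) and Atf3, a stress-induced factor of the ATF family, by 0.83 (adjusted p = 0.0671). The calls of Jun and Btg2 held whichever array was left out. That of Egr2 was lost without SIRT7 KO array 4 (adjusted p = 0.167), and that of Atf3 when WT array 1 was dropped (adjusted p = 0.169) and when SIRT7 KO array 4 was (adjusted p = 0.151), and without SIRT7 KO array 2 Atf3 stood at the threshold (adjusted p = 0.14998). The part of this shared shift of immediate early genes in the Nr4a1 values was not tested.

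**Figure D4:**
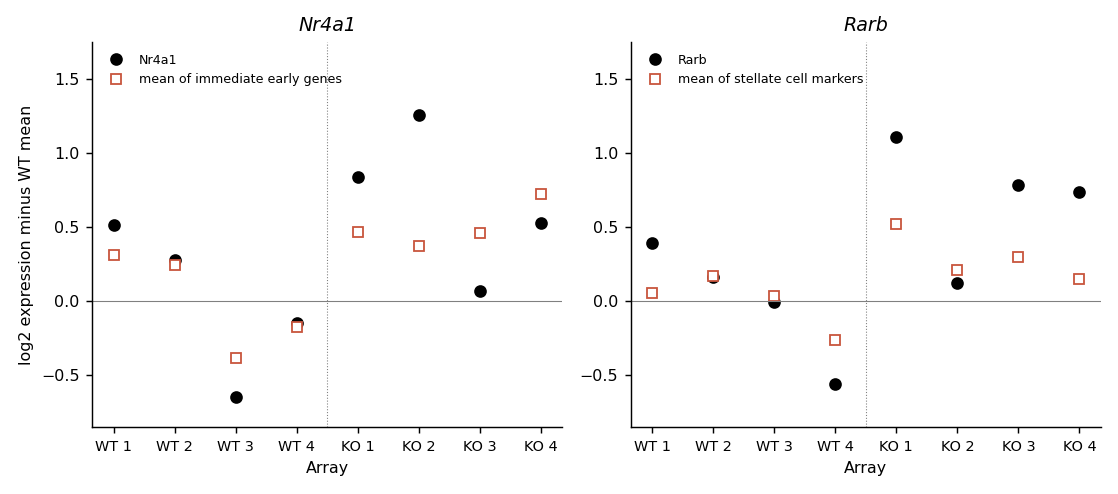
Log2 expression minus the WT mean (vertical axis) on each array (horizontal axis) for Nr4a1 beside the mean of 15 immediate early genes (left) and for Rarb beside the mean of 8 stellate cell markers (right). Within WT, array 3 is lowest for Nr4a1 (6.17) and for the immediate early list (6.34), and array 4 is lowest for Rarb (5.89) and for the stellate cell markers (7.75). Within SIRT7 KO, array 2 is highest for Nr4a1 (8.08) but lowest for the immediate early list (7.11). There array 2 is lowest for Rarb (6.57) and array 4 for the stellate cell markers (8.17), while array 1 is highest for both (7.56 and 8.53).

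Among the other orphan receptors, Nr2f6, a repressor also named EAR2, was the member whose groups did not overlap. It read 9.76, 9.94, 9.90 and 9.68 in WT and 9.59, 9.60, 9.60 and 9.44 in SIRT7 KO. Its difference of -0.26 ± 0.079 (-0.44 to -0.09) missed the threshold with an adjusted p of 0.163. It passed without WT array 4 (-0.31, adjusted p = 0.119) and with each array centred on its median (-0.27, adjusted p = 0.145). Its second probe set differed by -0.21 (adjusted p = 0.512). Nr2f2, which encodes COUP-TFII, a factor of venous endothelium as well as of hepatocytes, read 9.67, 9.60, 9.39 and 9.24 in WT and 9.46, 9.45, 8.94 and 8.85 in SIRT7 KO. The difference was -0.30 (-0.67 to 0.06), and all 3 of its probe sets were below 0.

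Of 8 endothelial cell markers 1 rose, Lyve1 of sinusoidal endothelium (1.21 ± 0.209, adjusted p = 0.0463), and 5 of the 8 differences were negative. The median difference was -0.05. The list means, which include Lyve1, were between 7.76 and 7.96 in WT and between 7.83 and 8.05 in SIRT7 KO. The part of endothelial cells in the Nr2f2 values was not tested. Nr2c1, known as TR2, differed by -0.15 (-0.57 to 0.27) and its second probe set had the opposite sign (0.11). Nr2f1 (COUP-TFI) and Nr6a1, the germ cell nuclear factor, differed by 0.02 (-0.23 to 0.27) and 0.02 (-0.14 to 0.18), both at mean signals below the lower quartile, and the second probe set of Nr6a1 was at -0.02.

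The coregulators did not pass in any of 4 genes. Ncoa3, a p160 coactivator also named SRC-3, read 6.10, 5.78, 6.16 and 5.87 in WT and 5.91, 5.63, 5.66 and 5.72 in SIRT7 KO. Its groups overlapped through SIRT7 KO array 1, and its difference of -0.25 (-0.48 to -0.02) had an adjusted p of 0.304. Ncoa1 (SRC-1) read between 8.12 and 8.24 on all 8 arrays and was among the least variable genes, with a within-group spread above that of 1.99% of all genes. It differed by 0.02 (-0.12 to 0.15), while its dimmer probe set differed by -0.08 with all SIRT7 KO arrays below WT (adjusted p = 0.575). Ncoa2 (SRC-2) differed by 0.04 (-0.19 to 0.26), and Ppargc1b, the coactivator PGC-1β, by -0.11 (-0.42 to 0.20).

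Receptors and coregulators beyond these members were read for comparison. Of 16 other nuclear receptors measured, 3 rose and none fell. Pparg, the adipogenic PPARγ, read 7.81, 7.84, 7.63 and 6.62 in WT and 9.004, 8.79, 7.80 and 8.93 in SIRT7 KO, and rose by 1.16 ± 0.327 (adjusted p = 0.145). SIRT7 KO array 3 lay within the WT range, and the call held only when that array was left out (1.43, adjusted p = 0.0851), with adjusted p between 0.181 and 0.299 in the other fits. Esrrb, an orphan relative of Esrra (0.28, adjusted p = 0.137), and Pgr, the progesterone receptor (0.25, adjusted p = 0.147), also passed, but both had mean signals below the lower quartile, and both calls were lost after a further quantile normalization (adjusted p = 0.151 and 0.158) and after centring. Dropping 1 array kept the call of Pgr only without WT array 4, and that of Esrrb without WT array 4 or without SIRT7 KO array 4. Of 17 other coregulators 1 fell, Pprc1 of the PGC-1 family, from 7.40, 7.49, 7.72 and 7.56 in WT to 7.15, 7.15, 6.99 and 7.31 in SIRT7 KO (-0.39 ± 0.094, adjusted p = 0.0994). Among the fits that dropped 1 array, that call held in those lacking array 4 of either genotype, and the adjusted p reached 0.190 in the other fits.

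The direction of the differences varied with the brightness of the probe set, a split made after the values had been seen. All 8 members above the upper quartile of all probe set means (8.53) had negative differences, with a median of -0.23. They were Nr1i3, Rora, Rxra, Rxrb, Nr3c1, Nr2f6, Nr5a2 and Nr2f2. Of all 3663 genes in that range 58.7% were negative, with a median of -0.03. The 8 differences stayed negative in all 16 alternative fits, those without 1 array included. These fits reused the arrays whose signs had been seen before the split, so they are no independent support. Of the 10 members between the median and the upper quartile 5 were negative (50%), beside 56.8% of all genes there. Of the 12 members at or below the median brightness (6.35) 3 were negative (25%), beside 41.7% of all genes there. Brightness depends on the probes as well as on the transcript, so it does not rank the genes by abundance.

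**Figure D5:**
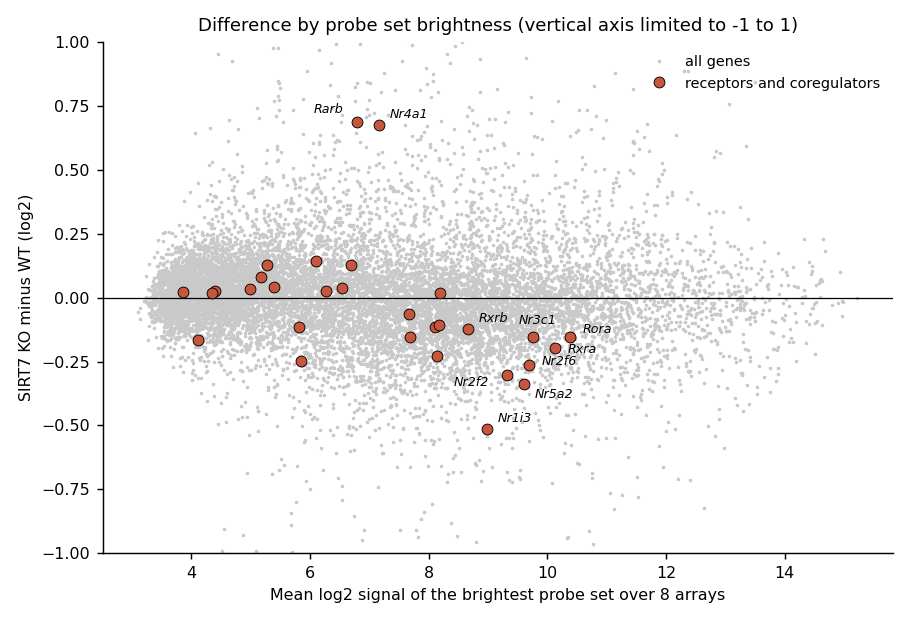
Difference in log2 expression (vertical axis, limited to -1 to 1) against the mean log2 signal of the brightest probe set over 8 arrays (horizontal axis) for all genes (grey) and for the 30 members (red). The 8 members brighter than 8.53 all lie below 0, while Rarb (0.69) and Nr4a1 (0.67) stand above 0 at intermediate brightness.

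Across the arrays of a group no single array set all members apart. Within WT, array 1 held the highest of the 4 values in 14 of the 30 members and array 3 the lowest in 13. Within SIRT7 KO, array 1 was highest in 10 and array 4 lowest in 10. Without WT array 4, the array that stood apart over all probe sets, 1 member was called, Nr2f6, and Nr1i3 was at -0.54 (adjusted p = 0.179). Of the remaining marker lists, none of 7 macrophage genes passed, although all 7 differences were positive (median 0.18, list means between 8.78 and 9.73 in WT and between 8.96 and 9.89 in SIRT7 KO). None of 4 cholangiocyte genes passed, with 2 negative, and none of 3 B cell genes, all negative (median -0.13). Of 4 T and NK cell genes 3 differences were negative and 1 gene fell, Cd3g (-0.39, adjusted p = 0.137), at a mean signal near the lower quartile. Its call held once WT array 4 or SIRT7 KO array 1 was dropped and was lost on dropping any other array (adjusted p of up to 0.288).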

How the data were processed

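Liver RNA of 4 WT and 4 SIRT7 KO mice was measured on 1 Affymetrix array each, with groups and replicate numbers from the labels. The deposited table held log2 expression values, 1 per probe set and array. The methods name RMA and the submitters' processing notes name GCRMA, which of them applies was not settled, and no version was stated. The values were used as deposited. The study names wild-type littermates for its PCR of the same genotypes, but litter and batch were not found stated for the animals of these arrays, so p-values reflect only how these arrays vary, which may be technical, and the number of arrays limits precision.

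Of 22690 probe sets, 64 controls were left out. Of the 22626 tested, 20380 had 1 gene symbol in the platform annotation, 691 several and 1555 none. Each of 12393 genes was represented by its single-symbol probe set with the highest mean over 8 arrays. All 30 measured members matched the GRCm38.p6 gene table by Entrez ID. The genotypes were compared by limma (3.58.1, R 4.3.3; lmFit and eBayes, genotype only, two-sided, Benjamini-Hochberg over all tested probe sets) at an adjusted p under 0.15. The procedure was tested on simulated data.

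The members and gene lists were chosen with earlier results of these data known. The rule named every member, further probe sets of a member that differed in sign or call, the genes of each list past the threshold (at most 4, otherwise the gene with the smallest p), and Sirt7. Exceptions are stated where they occur, and the other probe sets given for single members were picked after their values were seen. The alternatives were an adjusted p under 0.05, trended robust variance, array weights, quantile normalization, centring, leaving out dim probe sets, the mean of a gene's probe sets, a replicate block and leaving out each array. Promoter windows came from RefSeq (GRCm38.p6).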

Additional observations from a re-analysis of the deposited data

Results flagged for a closer look

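In groups of 4 arrays, the highest or lowest array was tested for its gap to the nearest other array in 88 groups of 44 genes, and 5 were far from the rest, where chance gives about 1 in 20. SIRT7 KO array 3 was high for Nr4a2 (5.324, next array 5.176). SIRT7 KO array 4 was low for Nr2c1 (7.289, next array 7.695) and for Nr2f6 (9.442, next array 9.585). For Nr2f6 the gap widened the distance from WT, and the other SIRT7 KO arrays also lay below every WT array. WT array 4 was low for Pparg (6.621, next array 7.632), and without it the difference of Pparg was 0.87 (adjusted p = 0.181). WT array 2 was high for Btg2 (8.31, next array 8.015).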

How the results depend on the processing

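The count of changed members (1, Nr1i3) was small and moved with the settings. It was 0 at an adjusted p under 0.05 and 0 after a further quantile normalization (Nr1i3 -0.49, adjusted p = 0.162), and 2 with array weights, with centred arrays and with dim probe sets left out, each time Nr1i3 and Nr2f6. With the replicate number as a replicate block it was 2, with Nr4a1 higher and Nr1i3 lower. The deviations of same-numbered arrays correlated between -0.252 and 0.255, and 0 of 4 WT arrays correlated best with their own number. With 4 arrays a group these values cannot settle whether the numbers pair the arrays. The count of changed members was 1 with trended robust variance and with the mean of a gene's probe sets. Leaving out 1 array gave counts between 0 and 2. The count was 0 without WT array 1 or 2 or SIRT7 KO array 1, 3 or 4, 1 without WT array 4 (Nr2f6) or SIRT7 KO array 2 (Rarb), and 2 without WT array 3 (Nr1i3 and Nr5a2). The number of all genes called, 576, was 94 at 0.05, 368 with the block and between 132 and 525 without 1 array. The cause of these shifts was not tested, except that the block and the fits without an array use fewer residual degrees of freedom.

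Of 228 differences of members under the other settings, 217 kept direction and call, 2 lost and 4 gained the call, and 5 turned direction. Those were Thra with array weights (-0.0118), Nr6a1 after quantile normalization (-0.00647), and with the mean of all probe sets Vdr (-0.0120), Nr6a1 (-0.00111) and Ncoa1 (-0.0326). Without 1 array, direction turned in 15 of 240 differences, for 8 members whose differences ran from -0.00802 to 0.064 (Vdr), -0.0437 to 0.15 (Thra), -0.0169 to 0.12 (Rara), -0.0109 to 0.095 (Rxrg), -0.0647 to 0.10 (Nr2f1), -0.0167 to 0.059 (Nr6a1), -0.00181 to 0.039 (Ncoa1) and -0.0253 to 0.095 (Ncoa2). Signals near background limit Vdr, Esr1, Nr2f1 and Nr6a1, and 4 arrays a group limit all.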
